A study of Danio rerio with 15 samples.

Results

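The 200 genes described here were strongly reduced in depleted zebrafish testes and, on average, back to at least 75% of the control level in recovering testes. They were chosen from group means of normalised read counts (CPM, a gene's count scaled to a total of 1000000 per library). With C, D and R the means of the control, depleted and recovering libraries, a gene had to have all 3 means under 500 CPM, C of at least 10 CPM, (C + 0.5)/(D + 0.5) of at least 4 and R of at least 0.75 C. Of 33752 genes listed, 2093 met every condition except the one on R, 936 also met that one, and the 200 with the largest (C + 0.5)/(D + 0.5) were taken. RNA was sequenced from testis tissue of wild-type adult zebrafish. The samples are titled control, depletion and recovery, with 5 of each in the design, which calls them biological replicates. Counts of 4 control, 5 depleted and 5 recovering libraries were used, and control replicate 2 was not analysed here. How the testes were depleted, how long they recovered and whether animals were pooled are not given in the sources used here.

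Spermatogenesis turns spermatogonial stem cells into spermatocytes, which pass through meiosis, and then into spermatids, which build a flagellum and become sperm. The flagellum is a motile cilium. Its core, the axoneme, is a ring of microtubule doublets moved by dynein arms, coordinated by radial spokes and the nexin-dynein regulatory complex, and stiffened by proteins bound inside the microtubules. In zebrafish, germ cells at one stage develop together in a cyst enclosed by Sertoli cells, and Leydig cells between the tubules make androgens.

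Libraries held between 8123444 and 48646941 counts, the most in control replicate 5. A total of 3 counts corresponded to between 0.298 and 0.369 CPM in the depleted libraries, which is the resolution of values near 0, for counting error only. Summed CPM of the genes matched in a list of Sertoli cell markers was 1525 to 2119 in control and 2333 to 4199 in depleted libraries, and that of a Leydig cell list was 983 to 1727 and 1310 to 12903. Summed CPM of a leukocyte list was 367 to 887 in control and 2277 to 4641 in depleted libraries. Their part in the results below was not tested. In whole testes, fewer cells of a type and less RNA per cell cannot be told apart.

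The set was labelled lost in depletion and fully back in recovery. The loss was as named, while most recovering means lay somewhat below the control means. Depletion left a median of 5.02 CPM over the 200 genes, against 68.4 CPM in control testes, and (C + 0.5)/(D + 0.5) ran from 8.61 to 54.2. In recovering testes the median was 60.4 CPM. The recovering mean was below the control mean for 188 of the 200 genes and at or above it for 12. Among all 11749 genes with a control mean of 10 to 500 CPM it was below for 7451, with a median of 90.6% of control. For the 200 the median was 81.9%, and 84 of the genes lay between 75% and 80%, just inside the limit. Among all 2093 genes lost at least 4-fold, the median was 73.5% of control, with 372 genes between 70% and 75% and 343 between 75% and 80%. The limit at 75% therefore ran through the middle of a single cloud of genes, which the plot of recovery against loss shows. All these values were used in the choice and are descriptions. At the end of the list, SSX2IP, EEIG2 and ANPEP were the last genes inside, with log2 ratios of 3.111, 3.109 and 3.106. ENSDARG00000090531, tbx3b and ENSDARG00000014432 were the first outside, at 3.100, 3.096 and 3.086.

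**Figure D1:**
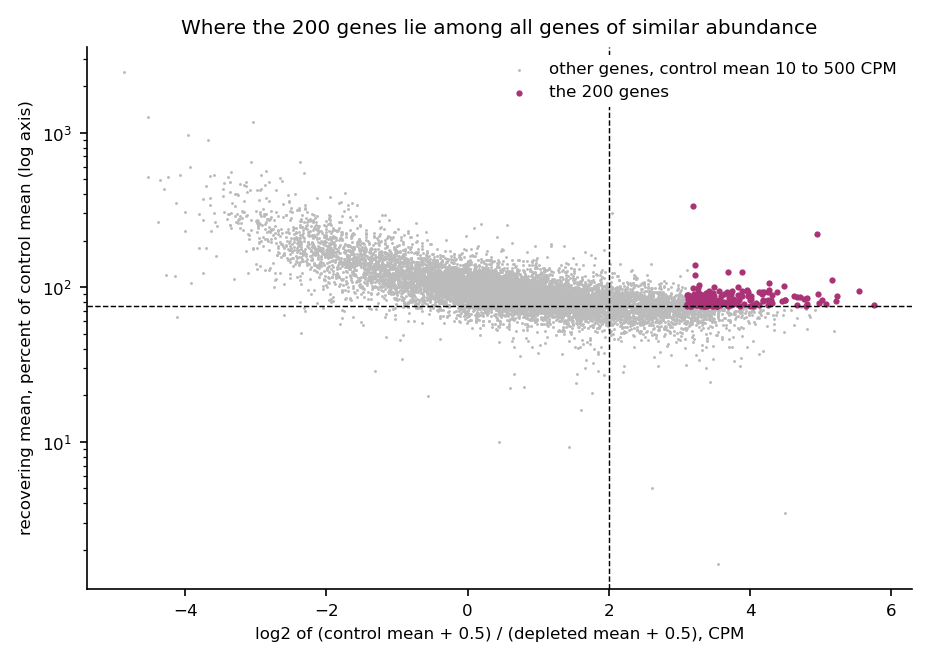
Recovering mean as a percent of the control mean (log axis) against the log2 ratio of control to depleted means (CPM + 0.5), for each gene with a control mean of 10 to 500 CPM and the other means under 500 CPM. The 200 genes (purple) lie to the right of the dashed line at a log2 ratio of 2 and above the dashed line at 75%, with no gap between them and the genes just below that line.

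Of the 200 genes, 155 had a symbol in the gene name table, where 21948 of the 33752 listed identifiers had one. Symbols are printed as that table gives them, some in capitals. The named genes fell into 93 with an ordinary symbol, 11 of the pimr family and 51 named only for the genomic clone on which they lie. A further 45 had no symbol. Lists of axonemal genes held 18 of the 200, a list of other spermatid and sperm genes 4, a meiotic prophase list 2 and a list of germline transcription factors 2. None of the 200 was in the lists for intraflagellar transport, spermatogonia, Sertoli cells, Leydig cells, leukocytes or erythrocytes.

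The dynein arms were represented by motor, docking and assembly proteins. DNAH5, a heavy chain of the outer dynein arm, was at 383, 238, 304 and 249 CPM in control replicates 1, 3, 4 and 5, a mean of 294 ± 66.3 (SD, n = 4). In depleted replicates 1 to 5 it was at 38.9, 47.9, 8.60, 2.27 and 2.09 CPM, and in recovering replicates 1 to 5 at 192, 258, 280, 228 and 251 CPM (mean 242 ± 33.6, SD, n = 5). Depleted and control libraries did not overlap, and 3 of the 5 recovering values lay inside the control range. ODAD2, part of the complex that docks the outer arm on the doublet, was at 486, 492, 426 and 410 CPM in control libraries. It was at 46.0, 124, 1.63, 1.30 and 0.199 CPM in depleted libraries and at 297, 353, 445, 291 and 355 CPM in recovering libraries. Only recovering replicate 3 reached the control range. The second docking protein of the set, odad3, had a control mean of 401, a depleted mean of 44.2 and a recovering mean of 312 CPM.

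Dynein arms are assembled in the cytoplasm by dedicated factors before they enter the flagellum, and 3 of these were among the 200. The assembly factor dnaaf6 was at 155, 141, 149 and 135 CPM in control libraries, at 15.4, 41.3, 2.61, 0.757 and 0.298 CPM in depleted libraries and at 97.2, 98.1, 142, 94.1 and 158 CPM in recovering libraries. For dnaaf6, recovering replicate 3 lay inside the control range, replicate 5 above it, and the other recovering libraries below every control. ZMYND10, which acts in the same process, was at 94.8, 114, 83.4 and 109 CPM in control libraries and at 14.2, 34.4, 0.871, 0.541 and 0.0994 CPM in depleted libraries. In recovering libraries ZMYND10 was at 75.7, 72.8, 92.0, 66.9 and 89.2 CPM, so that replicates 3 and 5 lay inside the control range. The third, pih1d2, had means of 101, 9.70 and 78.5 CPM in control, depleted and recovering testes.

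DNALI1, a light intermediate chain of the inner dynein arms, differed from these genes. It was at 44.5, 11.3, 23.3 and 10.2 CPM in control libraries, a 15.9 CPM SD around a mean of 22.3 (n = 4). In recovering libraries it was at 23.9, 0.151, 21.8, 22.3 and 24.6 CPM. Recovering replicate 2 was thus as low as the depleted libraries, which held 0.739, 0.240, 0.545, 0 and 0.199 CPM, while DNAH5 in the same library was at 258 CPM.

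Radial spokes and the central apparatus pass signals to the dynein arms, and 4 of the 200 genes came from that list. CFAP91, a protein at the base of the spokes, was at 413, 394, 331 and 301 CPM in control libraries. It was at 43.3, 127, 4.25, 2.27 and 0.596 CPM in depleted libraries and at 207, 305, 295, 308 and 271 CPM in recovering libraries. Of the recovering libraries, 2 reached the lower end of the control range and replicate 1 was the lowest. The spoke head protein RSPH9 had means of 259, 29.1 and 201 CPM in the 3 groups, the adenylate kinase ak7a 319, 32.3 and 278 CPM, and cfap70 253, 22.4 and 202 CPM. LRRC23, another radial spoke protein, which was in the sperm list, was at 392, 422, 389 and 273 CPM in control libraries. It was at 40.5, 98.6, 5.66, 2.16 and 0.398 CPM in depleted libraries and at 266, 261, 297, 347 and 306 CPM in recovering libraries, and 3 of the recovering libraries lay inside the control range.

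The list of proteins bound inside the doublet microtubules and related tail proteins held 7 of the 200. The most abundant was cfap210, at 494, 530, 453 and 473 CPM in control libraries, 60.8, 153, 20.6, 2.38 and 0.994 CPM in depleted libraries and 346, 324, 377, 398 and 416 CPM in recovering libraries. For cfap210 every recovering library was below every control library. The others were ribc2, pierce1, EFHB, cfap161, stpg2 and ENO4, an enolase of the sperm tail. Their recovering means ran from 75.1% of control for cfap161 to 85.0% for EFHB. Outside the lists, 3 more genes whose symbols begin with cfap, for cilia and flagella associated protein, were among the 200: cfap92, cfap184 and cfap263. They are named after their values were seen. Control means of the 7 cfap genes ran from 158 CPM for cfap184 to 488 CPM for cfap210.

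Both genes from the list of germline transcription factors, foxj1b and rfx3, belong to families that act on cilium genes. The factor foxj1b belongs to the Foxj1 family, which switches on motile cilium genes. It was at 98.3, 71.8, 101 and 68.9 CPM in control libraries, at 11.6, 24.1, 1.42, 0.757 and 1.09 CPM in depleted libraries and at 45.4, 57.6, 91.7, 65.2 and 63.4 CPM in recovering libraries. Only recovering replicate 3 lay inside the control range for foxj1b. The factor rfx3, of the RFX family that binds the promoters of ciliary genes, was at 342, 289, 355 and 299 CPM in control libraries. It was at 25.5, 112, 23.5, 6.49 and 2.39 CPM in depleted libraries and at 209, 288, 276, 338 and 296 CPM in recovering libraries. Recovering replicates 4 and 5 lay inside the control range of rfx3, and depleted replicate 2 stood far above the other depleted libraries.

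The 2 meiotic genes were MEI4, needed to form the DNA breaks that start recombination, and TEX11, which acts in crossover formation, both as known from the mouse. MEI4 was at 106, 125, 109 and 104 CPM in control libraries, 16.2, 30.2, 2.18, 0.866 and 1.39 CPM in depleted libraries and 72.0, 102, 115, 89.7 and 80.3 CPM in recovering libraries. TEX11 was at 354, 276, 282 and 250 CPM, then at 58.2, 91.7, 0.762, 2.27 and 0 CPM, and then at 185, 298, 293, 144 and 227 CPM in the same order of groups. Recovering replicates 2 and 3 lay inside the control range of TEX11 and replicate 4 was the lowest, while for MEI4 only replicate 3 lay inside it. Regulators of cell division were also present, though outside any list: cyclin B2 (CCNB2) had means of 58.9, 5.95 and 46.8 CPM in control, depleted and recovering testes, and securin (pttg1) 47.2, 3.47 and 37.1 CPM.

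Sperm proteins with other roles were dcst1 and DCST2, membrane proteins of sperm that are required for fertilization in mice and zebrafish, and tsga10, a protein of the sperm tail. For dcst1 the control libraries held 408, 262, 321 and 221 CPM, the depleted libraries 53.3, 105, 11.3, 2.81 and 0.199 CPM and the recovering libraries 196, 242, 299, 272 and 332 CPM, so that 4 of the 5 recovering libraries lay inside the control range. DCST2 had means of 256, 25.9 and 207 CPM. For tsga10 the control libraries held 390, 324, 286 and 273 CPM, the depleted libraries 17.5, 68.1, 6.43, 0.866 and 0.596 CPM and the recovering libraries 223, 207, 297, 209 and 289 CPM. Recovering replicates 3 and 5 of tsga10 lay inside the control range. Genes better known from neurons also belonged to the 200 and are named after their values were seen. The glutamate receptor subunits GRIN2A and GRIN2B had control means of 59.2 and 41.2 CPM, depleted means of 5.09 and 3.89 CPM and recovering means of 51.3 and 34.2 CPM.

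**Figure D2:**
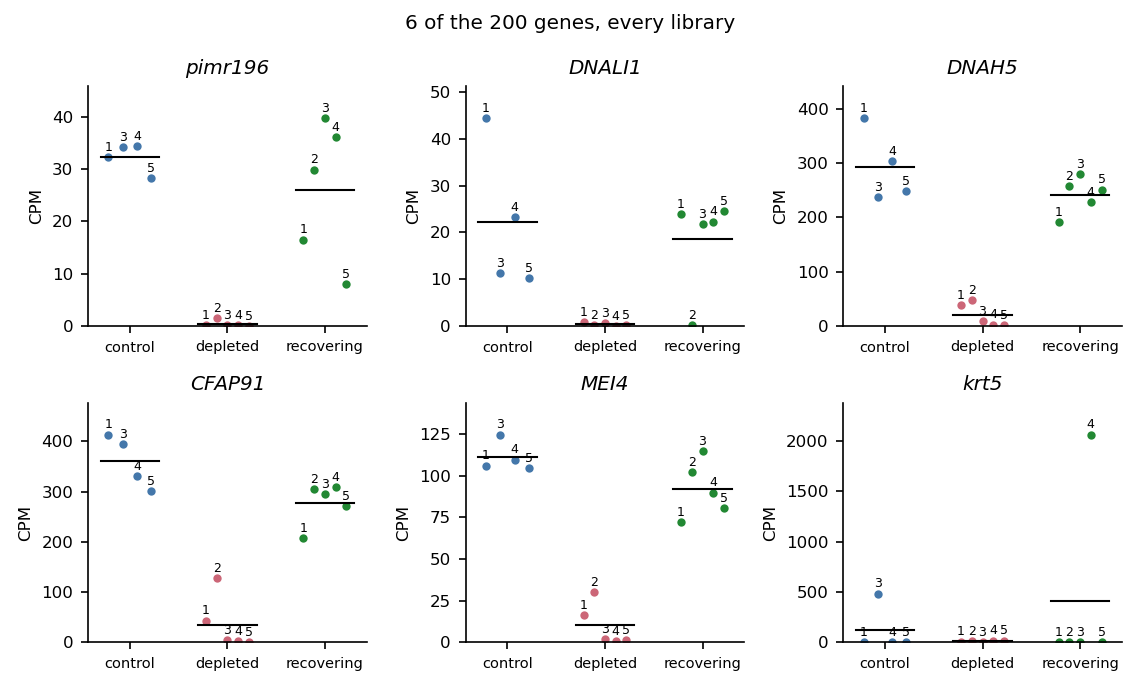
CPM of 6 of the 200 genes in every library, with a point per library labelled by its replicate number and a bar at the group mean. The depleted points of the first 5 genes lie near 0 and highest in replicates 1 and 2 for DNAH5, CFAP91 and MEI4. DNALI1 is near 0 in recovering replicate 2, and krt5 is high in control replicate 3 and recovering replicate 4 only.

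The largest losses were not in well known genes. Among the first 20, only DNALI1 had an ordinary symbol, 3 belonged to the pimr family, 9 had clone names and 7 had no symbol. ENSDARG00000086472 came first, at 48.9, 67.4, 82.3 and 48.5 CPM in control libraries, at 0.616, 1.56, 0.109, 0.757 and 0.199 CPM in depleted libraries and at 31.9, 65.8, 57.7, 67.4 and 14.4 CPM in recovering libraries. ENSDARG00000092029 came second, at 51.9, 65.9, 80.8 and 60.1 CPM, then at 0.739, 2.76, 0.327, 0.649 and 0 CPM, and then at 45.4, 80.6, 76.3, 76.2 and 26.8 CPM. In both genes recovering replicates 1 and 5 were below every control library, and replicates 2 to 4 were inside the control range. The first 20 also held si:dkey-248f6.3, si:ch211-262h13.4, ENSDARG00000090406, ENSDARG00000073809, si:ch211-209f23.3, ENSDARG00000075620, si:dkey-193p11.2, ENSDARG00000070788, si:ch211-208g12.1, ENSDARG00000088822, si:dkey-234d14.2, si:dkey-6f10.3, si:ch211-57m13.1 and si:ch211-57m13.5. The files and the name table give no function for any of these.

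The pimr genes are a large zebrafish family named for their relation to the Pim serine/threonine kinases. Their copies are alike, how the authors' counting treated reads shared between copies is not given in the sources used here, and values of single copies are uncertain for that reason. Of 95 pimr genes listed, 20 had a control mean of at least 10 CPM. All 20 were at least 4-fold lower in the depleted mean, 13 of them met the limit on R, and 11 were among the 200. The first of these, pimr196, was at 32.3, 34.2, 34.4 and 28.2 CPM in control libraries, 0.123, 1.56, 0.109, 0.108 and 0 CPM in depleted libraries and 16.5, 29.9, 39.7, 36.1 and 8.04 CPM in recovering libraries. Next came pimr180, at 41.2, 32.5, 33.9 and 30.4 CPM, then at 0.862, 2.76, 0.218, 0 and 0 CPM, and then at 17.8, 30.6, 34.3, 33.8 and 13.8 CPM. In recovering testes pimr196 and pimr180 were highest in replicates 3 and 4 and lowest in replicate 5. The third, pimr177, had a control mean of 24.2 ± 6.29 CPM (SD, n = 4), a depleted mean of 0.445 ± 0.705 CPM (SD, n = 5) and a recovering mean of 21.0 ± 12.0 CPM (SD, n = 5). The remaining pimr members were pimr185, pimr173, pimr179, pimr204, pimr189, pimr186, pimr200 and pimr183.

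The pimr genes outside the 200 are not independent of the choice of the 200. The family was picked after its values were seen, and alike copies may share reads with the pimr genes among the 200. The part of shared reads was not tested. Of the 84 pimr genes outside the 200, 58 were abundant enough to be tested, 49 of them with a control mean under 10 CPM. The filter on low counts took libraries of any group, so genes near 0 in depleted testes could pass it. An example is pimr195, with a depleted mean of 0.0721 CPM. The counts of falls and rises therefore describe the family, and nothing further is read from them. Comparing depleted with control testes, 43 fell and 0 rose (edgeR quasi-likelihood test, Benjamini-Hochberg adjustment, threshold 0.05), with a median log2 fold change of -2.65. Over all 21277 genes tested, 32.1% were called lower and 34.2% higher in that comparison, with a median of 0.03. In recovering against depleted testes, 41 of the 58 rose and 0 fell, with a median of 2.27, where 28.7% of all genes tested were called higher. In recovering against control testes edgeR called 0 of the 58, where 0.451% of all genes tested were called. None of the 58 had an unadjusted p under 0.05, where 16% of all genes tested did, and their median was -0.22. The fit took its spread from all 3 groups, so a lack of calls does not show levels equal to control. The pimr genes were not read in a fit of the recovering and control libraries alone.

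Genes named for the same clone lie near each other in the genome, and 5 clones carried 2 or more of the 200. Clone si:ch211-57m13 carried 4, si:dkey-80c24 carried 3, and si:ch211-202n12, si:ch211-262h13 and si:dkeyp-67e1 carried 2 each. The other genes of si:ch211-57m13 were 4, all of them tested, and all 4 fell in depleted and rose in recovering testes (edgeR, adjusted p under 0.05), with median log2 fold changes of -5.32 and 5.22. Both other genes of si:dkey-80c24 fell and rose in the same way, with medians of -4.50 and 4.27. The 1 other gene tested of si:ch211-202n12 and the 2 tested of si:dkeyp-67e1 also fell and rose. Over all genes tested, 32.1% were called lower in the first comparison and 28.7% higher in the second. Clone si:ch211-262h13 was mixed. Of its 2 other genes, si:ch211-262h13.3 rose in depleted testes (log2 fold change 1.85) and si:ch211-262h13.5 was not called (-0.46), while its member si:ch211-262h13.4 was at 44.7, 68.5, 74.1 and 64.9 CPM in control libraries and at 2.95, 3.0, 0.109, 0.325 and 0 CPM in depleted libraries. As with the pimr genes, alike neighbours may share reads, and genes near 0 in depleted testes could pass the filter on low counts. Of the other genes tested, 3 of si:ch211-57m13, 2 of si:dkey-80c24, 2 of si:dkeyp-67e1 and 1 of si:ch211-262h13 had a control mean under 10 CPM. The clones were picked for carrying 2 or more of the 200. The falls and rises therefore describe these clones, and nothing further is read from them.

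Of the 200 genes, 199 passed the filter on low counts, which counts libraries of any group, and si:dkey-193p11.2 did not. In edgeR, 198 of the 199 were called lower in depleted against control testes, where 32.1% of all genes tested were, and 197 were called higher in recovering against depleted testes, where 28.7% were. In recovering against control testes 0 were called, where 0.451% of all genes tested were called, 0.0329% lower and 0.418% higher. At an unadjusted p under 0.05 this number was also 0, against 16% of all genes tested. DESeq2 called 0 of the 146 that it gave an adjusted p, against 6.74% of all genes with one. The rule used all 3 contrasts, so nothing is read from these counts. The 3 contrasts share their libraries.

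The depleted testes differed widely in how much of this RNA was left, which the group mean hides. The 200 genes together made up 2.22% to 2.47% of the counts of control libraries. In depleted replicates 1 to 5 they made up 0.261%, 0.637%, 0.0588%, 0.0321% and 0.0174%. Depleted replicates 1 and 2 thus kept far more than replicates 3, 4 and 5, and depleted replicate 2 alone carried 63.3% of the summed depleted CPM. Replicate 2 was the highest depleted library for 178 of the 200 genes. For 179 genes, replicates 3, 4 and 5 were each below both replicate 1 and replicate 2. At the median gene, depleted replicate 2 stood at 23.1% of the control mean, replicate 1 at 9.80%, replicate 3 at 1.74%, replicate 4 at 0.927% and replicate 5 at 0.246%. Over all genes with a control mean of 10 to 500 CPM, the medians were 74.8%, 63.1%, 63.5%, 56.1% and 51.7% in depleted replicates 1 to 5. In depleted replicate 5, 65 of the 200 genes had no count, against 26 in replicate 4, 18 in replicate 3, 2 in replicate 1 and 0 in replicate 2. The marker list of spermatogonia and other germ cells was ordered partly alike, at a summed 3392 and 3166 CPM in depleted replicates 1 and 2 and at 118, 406 and 35.3 CPM in replicates 3 to 5, against 8563 to 9436 CPM in control libraries. That list shares no gene with the 200. Its part in the spread was not tested.

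Recovering testes varied less in proportion to their mean. The 200 genes made up 1.5%, 1.90%, 2.20%, 2.17% and 1.84% of the counts in recovering replicates 1 to 5, so that no recovering library reached the lowest control library. At the median gene, recovering replicate 3 stood at 101% of the control mean, replicate 4 at 89.3%, replicate 2 at 83.8%, replicate 5 at 75% and replicate 1 at 62.8%. A level of at least 75% of the control mean was reached by 177 of the 200 genes in recovering replicate 3 but by 34 in replicate 1. Over all genes with a control mean of 10 to 500 CPM, the medians were 84.5%, 95.7%, 96.9%, 81.6% and 89.8% in recovering replicates 1 to 5. For 184 of the 200 genes the recovering and control libraries overlapped, for 16 all recovering libraries were below all control libraries, and for 0 they were all above. Among all genes with a control mean of 10 to 500 CPM, 11.7% had every recovering library below every control library and 5.76% had every one above. The rule used these libraries, so nothing is read from the counts.

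**Figure D3:**
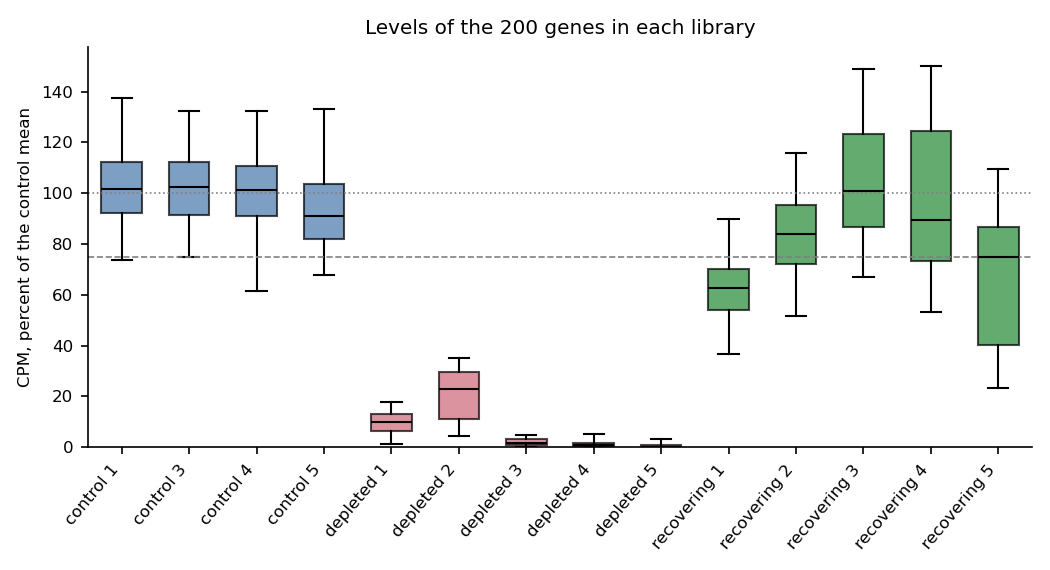
CPM of the 200 genes in each of the 14 libraries, as a percent of each gene's control mean. Boxes span the quartiles, lines mark the median, whiskers reach the 5th and 95th percentiles, and the dashed and dotted lines mark 75% and 100%. Depleted replicates 1 and 2 stand above the other depleted libraries, and the recovering medians run from 62.8% in replicate 1 to 101% in replicate 3.

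The 200 genes did not all vary alike across the recovering libraries. In recovering replicate 5, 55 of the 200 genes were under 0.5 of the median of the other 4 recovering libraries, which is 27.5%, against 1.99% of all genes with a control mean of 10 to 500 CPM. By name, these were 31 of the 51 genes with clone names, 15 of the 45 without a symbol, 9 of the 11 pimr genes and 0 of the 93 with an ordinary symbol. Over all genes with a control mean of 10 to 500 CPM, 10.8% of those with clone names and 2.86% of those without a symbol were low in this way. Recovering replicate 1 was low by the same measure for 28 of the 200 (14%, against 1.91% of all genes), 16 of them with clone names. At the median, the 55 genes stood at 32.0% of the control mean in recovering replicate 5 and at 133% in replicate 4, while the other 145 stood at 81.7% and 80.3%. For 40 of the 55, recovering replicate 4 was above every control library, which held for 8 of the 145. The share over all genes was not counted for this measure, so nothing is read from these counts. The 55 were also lower in depleted replicate 2, at a median of 8.35% of the control mean against 27.1% for the other 145. They were the less abundant genes, with a median control mean of 23.6 CPM against 113 CPM, and 37 of them were among the first 50 of the list. The 18 genes of the axonemal lists had medians of 68.1%, 76.0%, 85.4%, 82.2% and 85.5% of control in recovering replicates 1 to 5. In replicate 2, 2 of the 18 were under 50% of the control mean, and 1 was under 10%. The 55 genes were singled out by these values, so the numbers describe them and no test is given. The rule also required a recovering mean of at least 0.75 C. A gene this low in recovering replicate 5 could be chosen only with higher values in other recovering libraries. The choice therefore favoured high values such as those in replicate 4. Of 45 pimr genes outside the 200 with a median of at least 2 CPM in the other 4 recovering libraries, 20 were likewise under 0.5 of that median in recovering replicate 5. In recovering replicate 4 these 45 stood at a median of 96.8% of the control mean, against 132% for the 11 pimr members. Of all genes lost at least 4-fold outside the 200, 3.70% were low in recovering replicate 5. An example of the 55 genes is si:ch211-262h13.4, at 37.5, 66.5, 133, 97.5 and 14.4 CPM in recovering replicates 1 to 5.

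**Figure D4:**
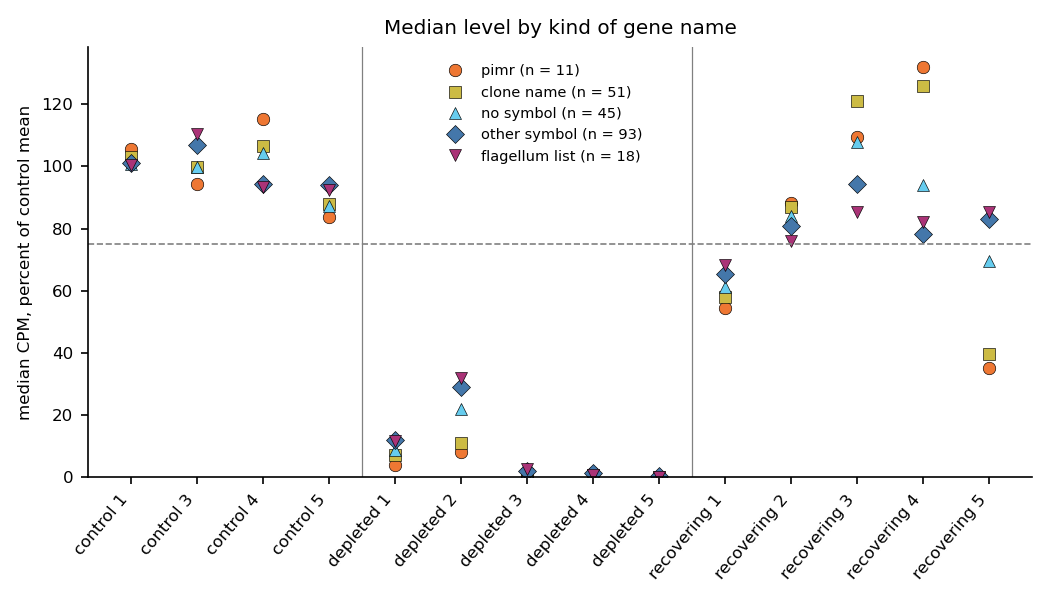
Median CPM as a percent of the control mean in each library, for the 200 genes grouped by kind of name; the 18 genes of the axonemal lists are also part of the 93 with an ordinary symbol (called other symbol). The groups lie close together in control libraries and apart in recovering replicates 4 and 5, where pimr genes are at 132% and 35.2% and axonemal genes at 82.2% and 85.5%.

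Of the 200 genes, 123 fell short of a threshold when 1 or another library was left out. In 2 of the genes, single libraries stood far above the rest. The keratin gene krt5, a gene of epithelial cells, was at 3.19, 485, 2.69 and 5.49 CPM in control libraries, at 8.99, 15.7, 4.03, 18.8 and 18 CPM in depleted libraries and at 2.77, 3.01, 2.64, 2063 and 6.06 CPM in recovering libraries. Control replicate 3 and recovering replicate 4 stood far above the rest, and 4 of the 5 depleted libraries were above the other 3 controls. Without control replicate 3, the control mean of krt5 was 3.79 CPM and the gene would not have been chosen. The gene si:dkey-193p11.2 was at 0, 94.1, 0.0868 and 0.144 CPM in control libraries and at 0.115, 0, 0.160, 261 and 0.136 CPM in recovering libraries, and so was high in the same 2 libraries. The keratin gene krt91, which is not among the 200, was also highest of its group there, at 458 CPM in control replicate 3 and 1503 CPM in recovering replicate 4. A list of epithelial genes put together after these values were seen had 21 genes matched. Without krt5 it summed to 1452 CPM in control replicate 3 and 5321 CPM in recovering replicate 4, each the highest of its group, and to between 8494 and 12516 CPM in the depleted libraries. Next were control replicate 5, at 1348 CPM, and recovering replicates 1 and 5, at 4633 and 4327 CPM. In those libraries krt5 was at 5.49, 2.77 and 6.06 CPM. No sum was taken without krt91 as well, so the order of the libraries may rest on that gene. Of the 21 genes, 1 was at 0 in control replicate 4 and 2 in recovering replicate 2, and none in any other control or recovering library. The part of epithelial cells in the 2 genes was not tested. ESRP1, a splicing regulator of epithelial cells and also among the 200, had means of 14.8, 1.08 and 15.3 CPM in control, depleted and recovering testes.

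The values that chose the genes could be read again in libraries that had no part in the choice. The rule was applied without the libraries of a replicate number in all 3 groups, and the 200 genes it then picked were read in the control, depleted and recovering library left out, which need not come from related animals. Replicate 2 was not left out, as it had no control library, so depleted replicate 2 was never read in this way. In that library 88 of the 200 genes stood at or above 25% of the control mean. For replicates 1, 3, 4 and 5 most of the picked genes were also lower in the depleted library left out. Each reading used a single library of each group. Among the genes picked without replicate 1, 178 of the 199 with a count in the control library were at least 4-fold lower in the depleted than in the control library left out, and with replicates 3, 4 and 5 left out it was 197, 192 and 197 of 200. Over all genes with a control mean of 10 to 500 CPM the share was 10.3% for replicate 1 and 24.3% to 28.3% for the others. In recovery the shares were lower and differed more between the libraries left out. At least 75% of the left-out control library was reached by 15.1%, 68.0%, 58.5% and 35.0% of the picked genes for replicates 1, 3, 4 and 5. Taken in the same way from the genes with R under 0.75 C, the 200 most lost gave 9.0%, 61.5%, 53.5% and 56.3%. The genes on the other side of the limit were therefore somewhat lower for replicates 1, 3 and 4 and higher for replicate 5. Over all genes with a control mean of 10 to 500 CPM the shares were 64.3%, 82.9%, 60.6% and 76.1%. These shares describe genes of single libraries and were not tested.

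Genes of meiosis, the axoneme and intraflagellar transport were also examined, through 6 lists that cover a small part of the 200. The 6 lists held 158 listed identifiers, of which 20 were among the 200 and 156 were tested. The intraflagellar transport list held none of the 200. In depleted against control testes 147 of the 156 fell and 1 rose by the same edgeR threshold, where 32.1% of all genes tested fell and 34.2% rose. Their median log2 fold change was -2.88. Without the 20 members, 127 of 136 fell. The gene that rose was spag1a, one of 2 copies of a dynein assembly factor, from 3.18 to 10.8 CPM (log2 fold change 2.18, SE 0.45, edgeR adjusted p = 0.00103), while the other copy, spag1b, fell from 12.8 to 1.41 CPM (log2 fold change -2.83, edgeR adjusted p = 0.0131). From depleted to recovering testes 134 of the list genes rose and 1 fell, where 28.7% of all genes tested rose, with a median of 2.45, and without the members 115 of 136 rose. In recovering against control testes edgeR called 0 of the 156 (0.451% of all genes tested), and DESeq2 called 0 of the 83 with an adjusted p (6.74% of all genes). Their median was -0.38, against -0.01 over all genes tested, and 6 had an unadjusted p under 0.05, 5 of them lower, where 16% of all genes tested had one. A fit of the recovering and control libraries alone called 15 of the 156, all lower, and 1.85% of all genes tested lower.

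Among all genes lost at least 4-fold, 936 of 2093 were back to 75% of control, and the lost genes of the lists lay on both sides of that share. Of 29 genes of the spoke and central apparatus list lost at least 4-fold, 5 were back, with a median of 70.4% of control. For the dynein assembly list it was 9 of 14 (78.7%), for axonemal dyneins 6 of 12 (75%), for microtubule inner proteins 8 of 21 (72.8%), for intraflagellar transport 9 of 22 (73.6%) and for meiotic prophase 9 of 21 (71.5%). The spermatogonia and germ cell list had 7 genes lost at least 4-fold and all 7 were back, with a median of 89.0%, but none was lost strongly enough to be among the 200. Of its 18 genes tested, 11 fell and 1 rose in depleted testes. These shares use the values of the rule and are descriptions. Of the spermatid and sperm list, 21 of 28 genes tested fell and 1 rose in depleted testes, and of the germline transcription factors 7 of 10 fell and 1 rose. The somatic lists went the opposite way in depleted testes: 6 of 8 Sertoli cell genes, 10 of 11 Leydig cell genes (with 1 lower), 12 of 13 leukocyte genes and 4 of 4 erythrocyte genes rose in edgeR, where 34.2% of all genes tested were called higher. Of the 20 epithelial genes tested, 9 rose and 1 fell, with a median log2 fold change of -0.53.

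**Figure D5:**
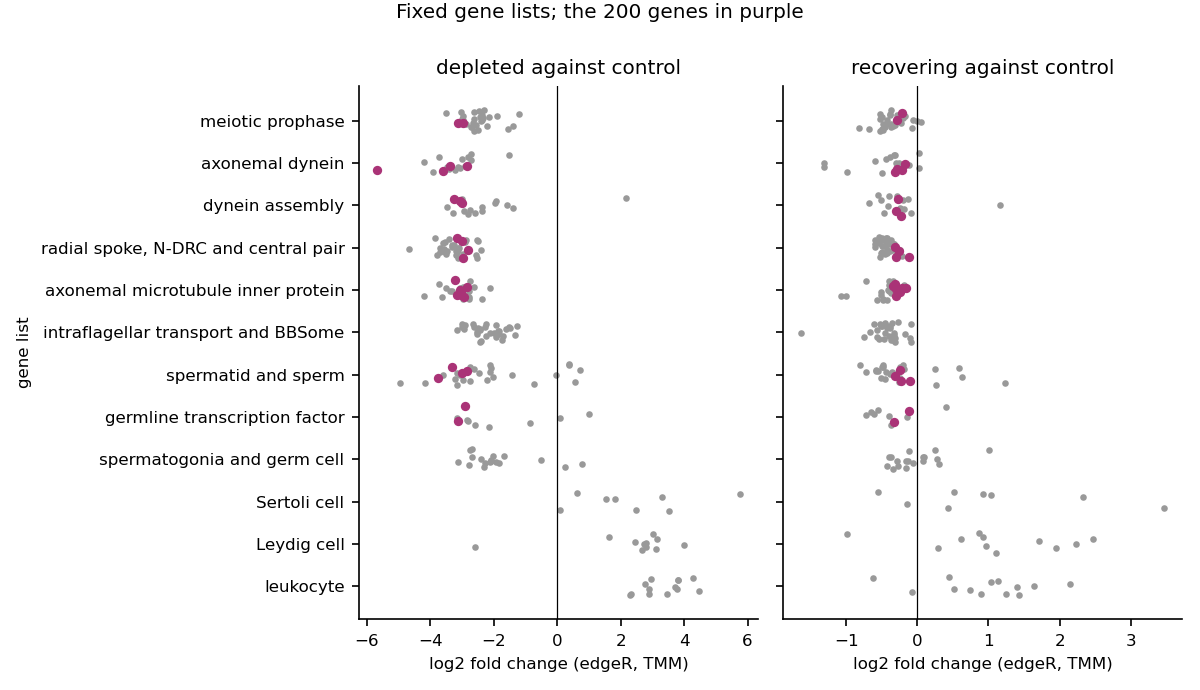
Log2 fold changes (edgeR, TMM scaling) of depleted against control and of recovering against control testes for the tested genes of each list, a point per gene, with the 200 genes in purple. In the left panel nearly all points of the meiotic and axonemal lists lie below 0, and in the right panel most of them lie a little below 0.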

How the data were processed

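The authors deposited raw counts per gene, which are whole numbers in every library, under Ensembl identifiers. The submitters' processing notes name FastQC 0.10.1, TopHat2 2.0.5, SAMtools 0.1.18, HTSeq, DESeq and the genome build Zv9. Annotation release, strand setting and the handling of shared reads are not given in the sources used here. Libraries were sorted into groups by sample title. CPM for levels and for the rule used the total count of each library, with no further scaling. Differential expression was tested with edgeR 4.0.16 (R 4.3.3) on all 14 libraries, with filterByExpr, TMM scaling, group as the only factor, quasi-likelihood F-tests and Benjamini-Hochberg adjustment over 21277 genes. The series design calls the samples biological replicates but does not say whether each is a single animal, so p-values measure the spread between these libraries. The fit was tested on simulated data. Far fewer genes changed in the simulation than were called here, so it does not cover so broad a shift. Total counts per library ranged from 8123444 to 48646941. Across 26 same-group pairs, chi-square per degree of freedom was at least 13.9, so every library counted as 1 sample. Alternatives were DESeq2 1.42.0, other scaling, filters, thresholds and fits, a replicate block, other settings of the rule and leaving out libraries. Members, lists and tests were chosen with earlier results of these data known. The rule for named genes took the 20 members with the largest loss, every member in a list, the genes at the edge of the 200 and families by symbol. Of 33752 identifiers, 21948 matched a symbol. No sequences were used here.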

Additional observations from a re-analysis of the deposited data

Results flagged for a closer look

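For 75 combinations of a group and a measure, the highest and the lowest library were compared with the others by Dixon's criterion. A library stood far from the rest in 13 of them. Chance gives about 3.75 for independent, normally distributed sets. These sets share libraries and several flags fall on the same library, so 13 against 3.75 is not a test.

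Control replicate 5 was sequenced to 48646941 counts, and the next deepest control library to 11525600. Depleted replicate 2 stood apart from the other depleted libraries for 5 genes. It held 1.56 CPM of pimr196 against 0.123 in the next library, 1.68 CPM of pimr177 against 0.298, 2.76 CPM of ENSDARG00000092029 against 0.739, 68.1 CPM of tsga10 against 17.5 and 112 CPM of rfx3 against 25.5.

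DNALI1 was at 0.151 CPM in recovering replicate 2, against 21.8 CPM in the next lowest recovering library. The gene krt5 was at 485 CPM in control replicate 3 against 5.49 in the next control library, and at 2063 CPM in recovering replicate 4 against 6.06 in the next recovering library. The gene si:dkey-193p11.2 was at 94.1 CPM in control replicate 3 against 0.144, and at 261 CPM in recovering replicate 4 against 0.160. The same gene was the single member without a count in control replicate 1 and in recovering replicate 2, a number of 1 against 0 in the other libraries of each group.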

How the results depend on the processing

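The choice of the 200 depended on the recovering libraries and on how groups were summarised. Group medians kept 100 of the 200. A limit of R at least C kept 12, the number with R at or above C, so that outcome was fixed beforehand. A limit of R at least 0.5 C kept 89. All 200 still met its thresholds, and those not kept were outranked by genes newly let in. TMM-scaled CPM kept 154, and pseudocounts of 0.1 and 2 CPM kept 189 and 162. Leaving out 1 library kept between 130, without recovering replicate 3, and 193, without depleted replicate 4, and 77 of the 200 met every threshold whichever library was left out. Leaving out the libraries of 1 replicate number together, an alternative added after the data were seen, kept 124 to 154 (132 without replicate 1). Without TMM scaling, the log2 fold change in depleted against control testes had a median of -0.34 over the genes tested (0.03 with it), and of -3.74 over the 200 (-3.42 with it).

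Of the 156 list genes tested, the number that fell in depleted testes (147) became 92 at an adjusted p under 0.01 and 80 in DESeq2, which gave an adjusted p to 83. The number that rose in recovering against depleted testes (134) became 62 and 78. Without 1 library the numbers were 130 to 154 and 100 to 153. In recovering against control testes the number was 0 in all fits except that of the 2 groups alone, with 15. The cause was not tested. Members called lower in depleted testes were 146 to 198 over all alternatives and 191 to 198 without 1 library. The 146 came from DESeq2, which called all 146 that it gave an adjusted p. At an adjusted p under 0.01 edgeR called 166 of 199. Members called higher in recovering against depleted testes were 143 to 198 and 175 to 198, and in recovering against control testes 0 throughout. With the replicate number as a block, members called were 198, 198 and 0 and list genes 153, 150 and 0, which changed no call count by over 1.5 times. Same-numbered libraries of different groups deviated together by a mean correlation of 0.0245 over 13 pairs (-0.159 to 0.241). Over 52 pairs with different numbers the mean was -0.00609 (-0.4 to 0.355). The labels give no pairing, and a mean near 0 cannot show that there is none. Depth limits values under about 0.3 CPM in the depleted libraries.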
